A study of Mus musculus with 24 samples.

Results

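The interleukin-1 (IL-1) system and the inflammasome sensor Nlrp3 were described from 7 genes of the 757 endogenous genes on the nCounter Mouse Neuroinflammation panel: Il1a, Il1b, Il1rn, Il1r1, Il1r2, Il1rap and Nlrp3. These 7 members were taken by name, and all of them had a probe. The RNA was that of 3 regions of the right hemisphere, cerebellum, cortex and striatum/thalamus, taken from 8 CD1 pups of both sexes. On postnatal day 9 the 4 HIBI (hypoxic-ischemic brain injury) pups, numbered 1, 4, 5 and 7, had the right common carotid artery cauterized, recovered with the dam, and then breathed 8% oxygen for 30 min. The 4 sham pups, numbered 2, 3, 6 and 8, had the neck opened and closed without ligation and stayed in normal air. Both arms received isoflurane anesthesia and bupivacaine at the incision, and tissue was frozen 30 min after injury, giving 24 libraries with 4 pups of each arm in each region. There was no group with hypoxia alone, so the 2 parts of the injury cannot be told apart within a region. The authors cite earlier work in which blood flow to the cerebellum did not fall in this model, and give no flow measurement for these pups. Among their limitations they allow that cerebellum may be read as hypoxia only. They add that, between cerebellum and forebrain, differences of region and of injury cannot be told apart.

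IL-1 alpha and IL-1 beta are the paired ligands of the system, made by microglia and other myeloid cells. Both signal through the type 1 receptor Il1r1 with its partner chain Il1rap, which recruits the adaptor Myd88 and leads to NF-kappaB. Il1rn encodes the receptor antagonist, which occupies Il1r1 without signaling, and Il1r2 is a decoy receptor without a signaling domain. IL-1 beta is made as an inactive precursor that caspase-1 cleaves, and Nlrp3 is a sensor protein that assembles the platform on which caspase-1 is activated. In the brain Il1r1 is known from endothelial cells, choroid plexus and subsets of neurons.

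Il1a and Il1b lie next to each other on mouse chromosome 2, and Il1r2, Il1r1 and Il1rl2 are successive protein-coding genes on chromosome 1. Promoter windows from RefSeq (GRCm38.p6) covered all 7 genes. They are shown as the 250 bases before the start of transcription. The genes shown are the 2 ligand genes, whose mean counts lay inside the range of the negative probes, and Il1r1 at both annotated starts. Il1r1 was the gene whose level differed between regions in all 3 tests. Capitals mark the TATA box (TATAAA), the AP-1 site (TGANTCA), the core of a hypoxia response element (ACGTG or GCGTG) and the NF-kappaB site, each searched on both strands.
Il1a, chr2:129309973-129310222, minus strand: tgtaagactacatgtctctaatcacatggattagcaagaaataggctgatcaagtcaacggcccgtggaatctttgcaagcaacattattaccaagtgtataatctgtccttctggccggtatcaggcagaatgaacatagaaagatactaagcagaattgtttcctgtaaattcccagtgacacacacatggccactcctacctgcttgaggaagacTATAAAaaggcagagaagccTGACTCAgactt
Il1b, chr2:129371140-129371389, minus strand: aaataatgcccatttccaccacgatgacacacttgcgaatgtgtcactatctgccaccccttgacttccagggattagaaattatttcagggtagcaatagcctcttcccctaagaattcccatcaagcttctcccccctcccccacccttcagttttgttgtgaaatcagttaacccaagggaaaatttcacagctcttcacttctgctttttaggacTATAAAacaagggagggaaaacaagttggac
Il1r1, first start, chr1:40224830-40225079, plus strand: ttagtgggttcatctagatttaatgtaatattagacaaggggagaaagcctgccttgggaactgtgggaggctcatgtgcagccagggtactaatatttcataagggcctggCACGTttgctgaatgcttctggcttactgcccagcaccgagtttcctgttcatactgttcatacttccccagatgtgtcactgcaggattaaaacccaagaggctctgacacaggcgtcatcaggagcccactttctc
Il1r1, second start, chr1:40266336-40266585, plus strand: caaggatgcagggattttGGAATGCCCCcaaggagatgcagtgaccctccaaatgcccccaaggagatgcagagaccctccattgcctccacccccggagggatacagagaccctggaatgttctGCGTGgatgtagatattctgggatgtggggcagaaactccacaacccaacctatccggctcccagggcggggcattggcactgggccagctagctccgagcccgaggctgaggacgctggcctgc

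Both ligand windows held a TATA box, which began 32 bases before the start in Il1a and 31 bases before it in Il1b. It was found in 12.4% of 32841 mouse promoter windows of the same length and in none of the other windows of the 7 genes. Il1a also held an AP-1 site 12 bases before its start, a motif found in 6.75% of windows. The second start of Il1r1 held an NF-kappaB match 232 bases upstream, and such a match was found in 3.90% of windows. Each Il1r1 window held 1 hypoxia response core, which 38.6% of windows hold. These motifs also occurred in windows not shown. A window of Il1rn held an AP-1 site 141 bases upstream, and a window of Nlrp3 held an NF-kappaB match 186 bases upstream. Both of these windows held 1 hypoxia response core, the Il1r2 window held 8 and the Il1rap window 5. In the window of Il1rap 30 CpG dinucleotides were counted, against a median of 6 over all windows, and the Il1r2 window held 14. These matches describe the letters only.

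Whether a gene was measured at all was judged within each library against its 8 negative control probes, which are designed to have no target in the sample. Their mean lay between 17.8 and 26.1 counts per library, and the detection limit was set at that mean plus 2 SD. Il1r1 and Il1rap were above the limit in 24 of 24 libraries. Nlrp3 was above it in 8 libraries, Il1a in 3, Il1r2 in 2, and neither Il1b nor Il1rn in any. Counts below are normalized counts, meaning raw counts divided by a library factor from TMM (trimmed mean of M-values) scaling over all 24 libraries. Averaged over the 24 libraries, the 8 negative probes ranged between 15.9 and 33.4 normalized counts. Il1a averaged 23.6, Il1b 24.4, Il1rn 22.8 and Il1r2 28.7, all inside that range. Nlrp3, at 35.2, was just above the highest negative probe. Differences in the 4 genes inside the range therefore rest on counts that the negative probes also gave.

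**Figure D1:**
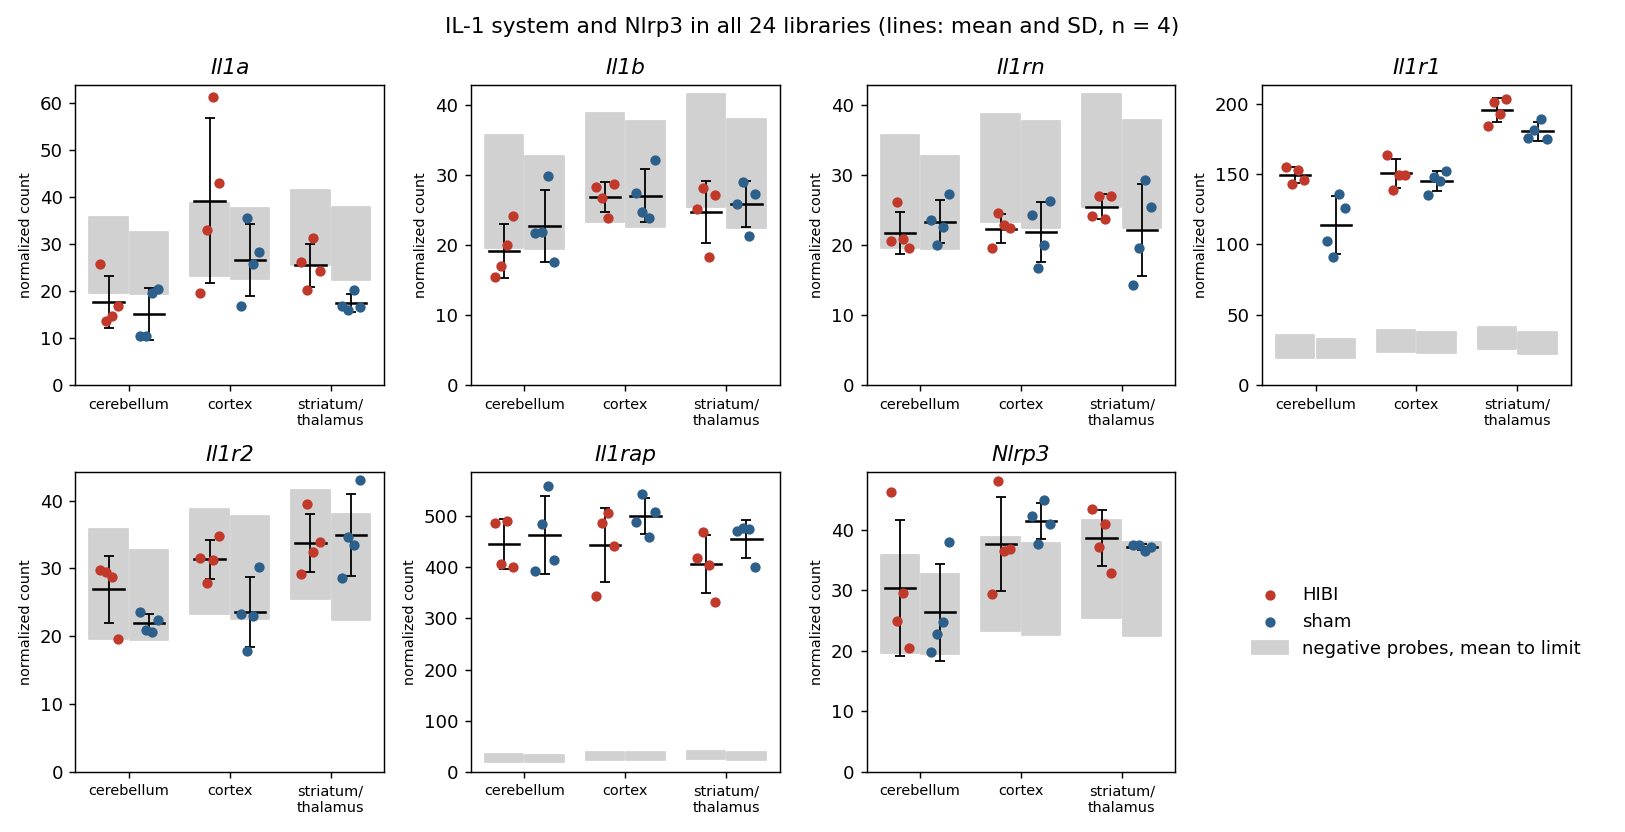
Normalized counts (y axis, linear, starting at 0) of each gene in the 24 libraries, by region, HIBI in red and sham in blue, with mean and SD of 4 pups and a grey band from the negative-probe mean to the detection limit, averaged over the 4 libraries. Il1r1 and Il1rap lie far above the band in every library, Il1b and Il1rn lie in or below it, and in cerebellum the HIBI points of Il1r1 lie above all sham points.

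No member passed the test between HIBI and sham in any of the 3 regions. Each region was tested alone with edgeR's quasi-likelihood test, adjusted by Benjamini-Hochberg over all genes tested, with a threshold of 0.05. In cerebellum 6 of the 7 members were tested and none passed, against 0.420% of 714 genes. In cortex 7 were tested and none passed, against 2.33% of 731 genes, and in striatum/thalamus 7 were tested and none passed, against 2.73% of 732 genes. At an unadjusted p under 0.05 there was 1 member in each region: Il1r1 in cerebellum, where 16.4% of all genes were at that level, Il1r2 in cortex (9.44%) and Il1a in striatum/thalamus (18.3%). The arms did not overlap for 1 member in cerebellum, Il1r1, against 7.14% of all genes there. They overlapped for all 7 members in cortex, where 6.02% of genes did not overlap, and in striatum/thalamus, where 9.43% did not. The tissue is a mixture of cells, so fewer cells of a type and less RNA per cell cannot be told apart in any of these values.

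**Figure D2:**
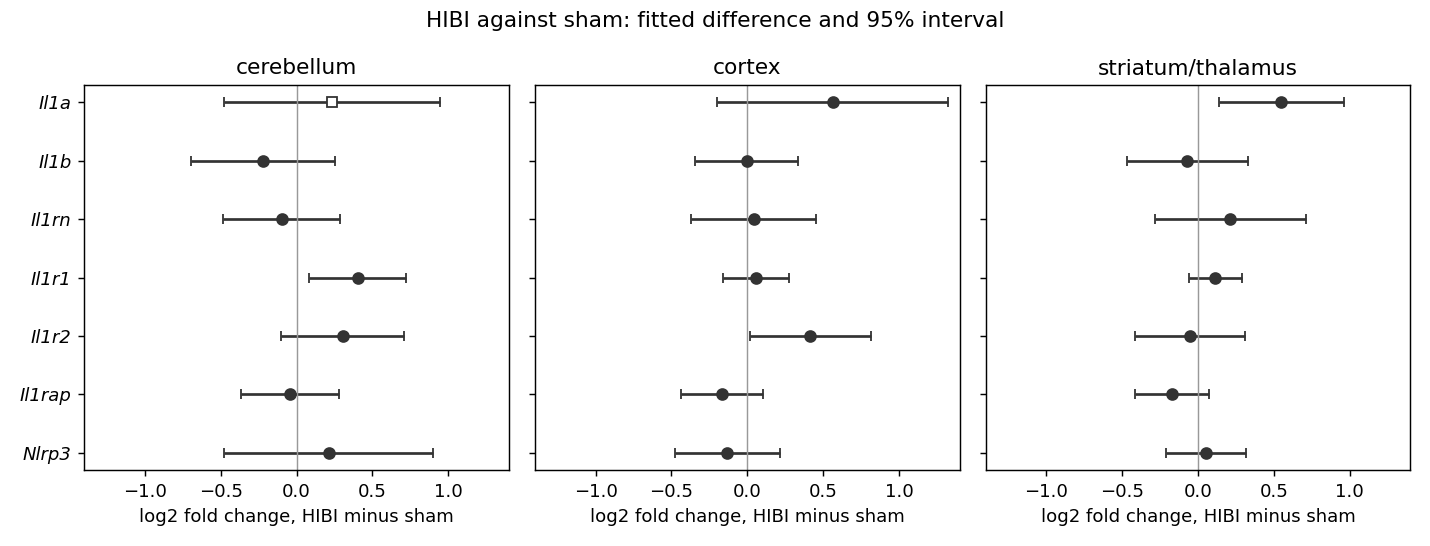
Fitted log2 fold change, HIBI minus sham (x axis), with its 95% interval for each gene (y axis) in each region, from 4 HIBI and 4 sham pups. The open square for Il1a in cerebellum comes from a fit without the filter on low counts. The intervals that leave out 0 are those of Il1r1 in cerebellum, Il1r2 in cortex and Il1a in striatum/thalamus, before adjustment.

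Il1b is the ligand most often followed after brain injury, and it stayed at the level of the negative probes. In cortex it gave 28.2, 26.7, 23.9 and 28.7 normalized counts in HIBI pups 1, 4, 5 and 7, against 27.5, 24.7, 23.9 and 32.2 in sham pups 2, 3, 6 and 8. All 4 HIBI values lie within the span of the sham values. The log2 fold change in cortex was -0.0033 with an SE of 0.15 (adjusted p = 0.994), and its sign turned under scaling to the reference genes (0.089). Its 95% interval of -0.34 to 0.34 covers folds between 0.788 and 1.26. In striatum/thalamus Il1b gave 18.3 to 28.2 in HIBI, against 21.3 to 29.0 in sham (log2 fold change -0.07, SE 0.18). In cerebellum it gave 15.4 to 24.2 in HIBI, against 17.6 to 29.8 in sham (-0.22, SE 0.21). Because background makes up most of these counts, such intervals do not bound a change in the transcript itself.

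Il1a, the other ligand, had its highest counts in HIBI cortex. Pups 1, 4, 5 and 7 gave 19.5, 33.1, 61.4 and 43.0 normalized counts there, against 16.9, 35.6, 25.8 and 28.3 in sham pups 2, 3, 6 and 8. HIBI pups 5 and 7 lay above every sham pup, while HIBI pup 1 lay below 3 of them. Of these 8 libraries, 2 HIBI and 1 sham were above the detection limit. The mean was 39.3 ± 17.6 in HIBI and 26.6 ± 7.72 in sham (SD, n = 4 each), with negative probes at 23.3 and 22.5. With a log2 fold change of 0.56 (SE 0.34, adjusted p = 0.715), the difference was within the spread between pups. Without HIBI pup 5 it was 0.26, and with the negative-probe mean subtracted it was 1.58 (adjusted p = 0.747).

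In striatum/thalamus Il1a gave 26.2, 20.3, 31.3 and 24.2 normalized counts in HIBI pups 1, 4, 5 and 7, against 16.9, 15.9, 20.3 and 16.6 in sham pups 2, 3, 6 and 8. The lowest HIBI pup and the highest sham pup met at 20.3. None of these 8 libraries was above the limit, and the gene entered the test mainly through the HIBI arm, where 3 libraries had at least 20 counts against 1 in sham. HIBI minus sham was 0.55 on the log2 scale (SE 0.18, unadjusted p = 0.0140, adjusted p = 0.158). The negative probes also averaged more in the HIBI libraries of this region, 25.5 against 22.4 in sham, and their part in the difference was not tested. With their mean subtracted, all 4 sham libraries and those of HIBI pups 4 and 7 fell below 0 and were set to 0. The log2 fold change of 4.47 (adjusted p = 0.383) then rests on counts set to 0 and does not size a change. Without HIBI pup 1, 5 or 7 or sham pup 6 the gene did not meet the filter. In cerebellum Il1a had too few counts for the test, 13.6 to 25.7 in HIBI against 10.4 to 20.5 in sham, and without the filter its log2 fold change was 0.23 (SE 0.32, adjusted p = 0.736).

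The receptor antagonist Il1rn gave a like picture to Il1b, with no library above the limit or above its highest negative probe. Its mean was 25.5 ± 1.80 in HIBI and 22.2 ± 6.63 in sham striatum/thalamus, 22.4 ± 2.09 and 21.9 ± 4.27 in HIBI and sham cortex, and 21.8 ± 2.95 and 23.4 ± 3.03 in HIBI and sham cerebellum (SD, n = 4 each). The largest of the 3 log2 fold changes, 0.21 in striatum/thalamus, had an SE of 0.22. In cerebellum it was -0.10 (SE 0.17), and its sign turned under reference-gene scaling (0.014).

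Il1r1, the signaling receptor, was the 1 member whose arms lay apart in a region, and it was measured well above background. In cerebellum it gave 155, 143, 153 and 146 normalized counts in HIBI pups 1, 4, 5 and 7, against 103, 91.3, 136 and 126 in sham pups 2, 3, 6 and 8. Every HIBI pup was above every sham pup, and the sham pups were the more spread, with an SD of 20.4 against 5.64 in HIBI. HIBI exceeded sham by 0.40 on the log2 scale (SE 0.14, 95% interval 0.08 to 0.72), a fold of 1.32. Its unadjusted p was 0.0187, which ranked 53 among 714 genes, and its adjusted p was 0.247. In 1 fit of all 24 libraries, which shares the spread between regions, the adjusted p was 0.0325 (log2 fold change 0.39). That fit had no pup term, so the 3 libraries of 1 pup were treated as independent. Over the 15 alternatives run the adjusted p ranged between 0.0325 and 0.517.

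Marker genes of other cell types were read in the same libraries. The summed normalized count of 15 microglial markers was 5196 to 6523 in HIBI cerebellum, against 3915 to 5460 in sham, with 13 of the 15 higher, none passing the test, and none below the limit in all libraries. The 8 endothelial markers summed to 3586 to 4059 in HIBI, against 3736 to 3880 in sham. Of 11 neuronal markers 7 were higher, with sums of 43068 to 45780 in HIBI against 38434 to 44472 in sham, and 12 of 12 oligodendrocyte markers were higher, with a median log2 fold change of 0.15. The 6 astrocyte markers were split 3 and 3, and no marker of these lists passed in cerebellum. Over all genes tested in cerebellum, 357 of 714 were higher in HIBI. Ttr, the thyroid hormone carrier of choroid plexus, varied most, between 765 and 2193 in HIBI against 138 and 8447 in sham. Their part in the Il1r1 difference was not tested. Scaling to the 13 reference genes moved the median of all genes in cerebellum by 0.12 on the log2 scale, and Il1r1 with it to 0.51.

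In the other regions the arms of Il1r1 lay closer. Cortex gave 164, 139, 150 and 149 normalized counts in HIBI pups, against 135, 148, 145 and 152 in sham pups, and the ranges overlapped. The log2 fold change there was 0.06 (SE 0.10, adjusted p = 0.857), with an interval that reached no further than a 1.21-fold rise or a fold of 0.894. In striatum/thalamus the mean was 196 ± 8.68 in HIBI and 180 ± 6.82 in sham (SD, n = 4 each), and 3 of the 4 HIBI pups lay above the highest sham pup at 189.6. The log2 fold change was 0.11 (SE 0.08, adjusted p = 0.475). Leaving out HIBI pups 4 and 5 of this region, whose libraries were rich in Ttr, gave 0.096 (adjusted p = 0.613).

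Whether the effect on Il1r1 differed between regions was tested with the pup as a block over all 24 libraries. The HIBI effect in cortex less that in cerebellum was -0.35 on the log2 scale (SE 0.14, unadjusted p = 0.0225, adjusted p = 0.381), and that in striatum/thalamus less cerebellum was -0.28 (SE 0.14, adjusted p = 0.366). Neither difference passed. No member passed in any of these 3 tests, in which 0%, 0.805% and 0% of 745 genes passed for cortex less cerebellum, striatum/thalamus less cerebellum and cortex less striatum/thalamus.

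Il1rap, the partner chain of the receptor, was measured well above background in every library, between 332.0 and 560.3 normalized counts. HIBI striatum/thalamus gave 419, 469, 405 and 332 in pups 1, 4, 5 and 7, against 470.4, 476.5, 475.4 and 401 in sham pups 2, 3, 6 and 8. Its means were 406 ± 56.5 in HIBI and 456 ± 36.8 in sham striatum/thalamus, and 444 ± 72.8 in HIBI and 500 ± 34.8 in sham cortex (SD, n = 4 each). The log2 fold change was -0.17 in both regions (SE 0.11 in striatum/thalamus and 0.12 in cortex), and the arms overlapped. In cerebellum it was -0.04 (SE 0.14), and its sign turned under reference-gene scaling (0.072). The 95% intervals reached down to folds of 0.751, 0.738 and 0.776 in striatum/thalamus, cortex and cerebellum, so larger losses fall outside them.

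Il1r2, the decoy receptor, was highest in HIBI relative to sham in cortex. There it gave 31.5, 27.8, 31.2 and 34.8 normalized counts in HIBI pups 1, 4, 5 and 7, against 23.2, 17.8, 22.9 and 30.2 in sham pups 2, 3, 6 and 8. Sham pup 8 overlapped the HIBI range, and none of the 8 libraries was above the limit. HIBI minus sham was 0.42 on the log2 scale (SE 0.18, unadjusted p = 0.0415, adjusted p = 0.462), and 2.17 with the negative-probe mean subtracted (adjusted p = 0.528). It was 0.30 in cerebellum (SE 0.18, adjusted p = 0.429) and -0.05 in striatum/thalamus (SE 0.16, adjusted p = 0.895). The 2 libraries in which Il1r2 was above the limit were both sham striatum/thalamus.

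Nlrp3 did not differ in a common direction. In cerebellum it gave 46.2, 25.0, 29.5 and 20.5 normalized counts in HIBI pups 1, 4, 5 and 7, against 19.8, 22.8, 24.7 and 38.0 in sham pups 2, 3, 6 and 8. HIBI pup 1 and sham pup 8 stood above the others and were the 2 cerebellar libraries above the limit. Fitted over all 8 pups the log2 fold change was 0.21 (SE 0.31, adjusted p = 0.730), and without HIBI pup 1 it was -0.07. In cortex the mean was 37.7 ± 7.76 in HIBI and 41.4 ± 3.03 in sham, and in striatum/thalamus it was 38.6 ± 4.57 in HIBI and 37.1 ± 0.442 in sham (SD, n = 4 each). These differences were -0.13 (SE 0.16) and 0.05 (SE 0.12) on the log2 scale.

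Regional levels in uninjured brain were compared within the 4 sham pups, with the pup as a block, since 1 pup gave all 3 regions. This fit takes its scaling from the 12 sham libraries alone, so its log2 differences are not exactly those of the listed normalized counts, which are scaled over all 24. Tbr1 and Eomes, named after their values were seen, describe the separation of cortex from cerebellum only. Tbr1, a transcription factor of cortical excitatory neurons, averaged 943 normalized counts in sham cortex and 43.2 in sham cerebellum. Eomes, which marks unipolar brush cells in cerebellum, averaged 49.2 in sham cortex and 592 in sham cerebellum. The regions differ in much of the panel. Between cortex and cerebellum 3 of 7 members passed, against 67.2% of 740 genes. Between striatum/thalamus and cerebellum 3 of 7 passed, against 64.6%, and between cortex and striatum/thalamus 2 of 7, against 40.0%. These shares are no higher among the members than over the panel.

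Il1r1 was the member that passed all 3 tests. Sham striatum/thalamus gave 175.5, 181.6, 189.6 and 174.9 normalized counts in pups 2, 3, 6 and 8, sham cortex 135, 148, 145 and 152, and sham cerebellum 103, 91.3, 136 and 126. The order striatum/thalamus, cortex, cerebellum held in all 4 pups. Cortex exceeded cerebellum by 0.42 on the log2 scale (SE 0.11, adjusted p = 0.00554), and striatum/thalamus exceeded cerebellum by 0.78 (SE 0.11, adjusted p = 7.64e-05), a fitted fold of 1.71, where the listed counts average 180 and 114. Cortex minus striatum/thalamus was -0.35 (SE 0.10, adjusted p = 0.0192), and this call was lost without pup 2 (adjusted p = 0.0685) or pup 6 (0.0601).

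Nlrp3 passed as higher in both forebrain regions than in cerebellum, on counts near the limit. Of 4 sham libraries each, 3 of cortex, 1 of striatum/thalamus and 1 of cerebellum were above it. Sham cortex gave 42.2, 37.6, 44.9 and 41.0 normalized counts in pups 2, 3, 6 and 8, sham striatum/thalamus 36.5 to 37.4, and sham cerebellum 19.8, 22.8, 24.7 and 38.0. Sham pup 8 had nearly the same level in all 3 regions. Cortex exceeded cerebellum by 0.72 (SE 0.18, adjusted p = 0.00363) and striatum/thalamus exceeded it by 0.61 (SE 0.18, adjusted p = 0.0107) on the log2 scale, while cortex and striatum/thalamus differed by 0.11 (SE 0.16, adjusted p = 0.642). The second call was lost without pup 2 (adjusted p = 0.0687) or pup 3 (0.0652), and with the negative-probe mean subtracted the differences were larger, 1.69 and 1.36, but neither passed (adjusted p = 0.0554 and 0.124). Of 15 markers of microglia, the cells in which Nlrp3 is best known, 14 passed as higher in sham cortex than in sham cerebellum. In sham striatum/thalamus 13 did, and of the 740 genes 233 and 238 did in the same order. In each comparison 1 microglial marker passed as lower, against 264 and 240 of the 740 genes. The median log2 differences of the markers were 0.81 and 0.57, against 0.01 and 0.05 over all genes. The part of these markers in the Nlrp3 difference was not tested.

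**Figure D3:**
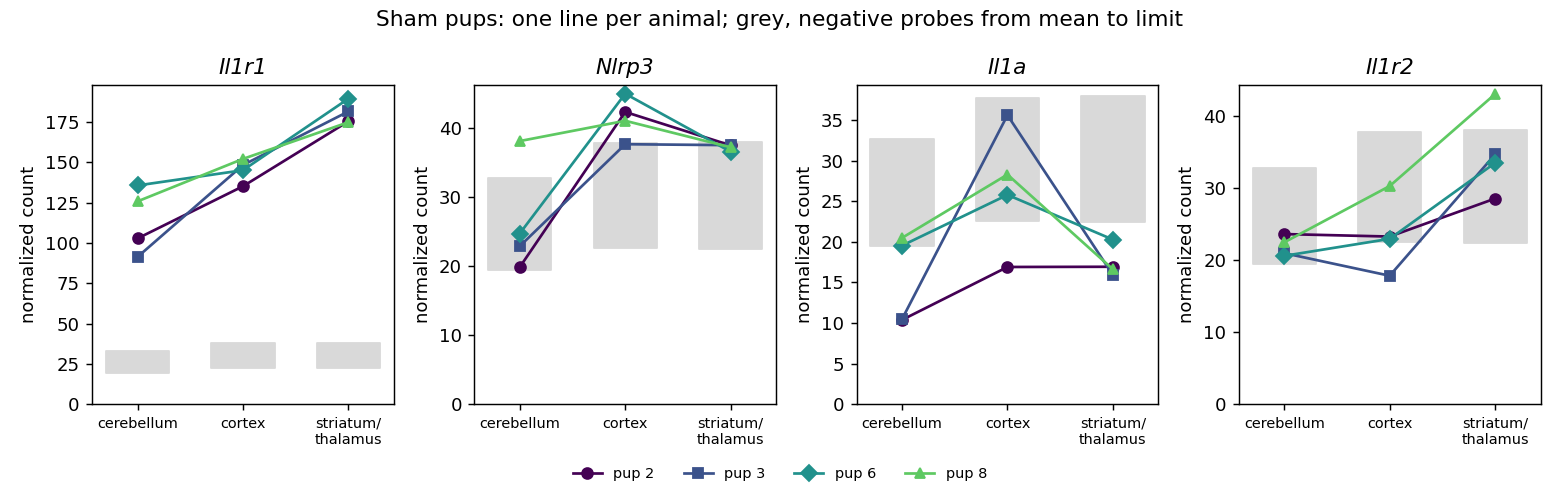
Normalized counts (y axis, linear, starting at 0) of Il1r1, Nlrp3, Il1a and Il1r2 in the 3 regions of each of the 4 sham pups, with 1 line per pup and grey blocks from the negative-probe mean to the detection limit. Il1r1 takes the same order in all 4 pups well above the grey blocks, whereas Il1a and Il1r2 move within or beside them.

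Il1a passed as higher in cortex than in cerebellum (0.88 on the log2 scale, SE 0.25, adjusted p = 0.00885), with 26.6 ± 7.72 normalized counts in sham cortex and 15.2 ± 5.55 in sham cerebellum (SD, n = 4 each). Its cerebellar mean was under that of the negative probes, 19.5, and only cortex of pup 3 was above the limit. It met the filter mainly through cortex, where 3 sham libraries had at least 20 counts against 1 in cerebellum and 1 in striatum/thalamus, so this call is no independent sign of a difference. Without pup 3 the difference was 0.56 (adjusted p = 0.0648), and without pup 6 or pup 8 the gene did not meet the filter. With background subtracted the difference was 3.86 (adjusted p = 0.107). In that fit cerebellum of pups 2, 3 and 8 and cortex of pup 2 were set to 0. Il1r2 passed as higher in striatum/thalamus, with 28.5, 34.6, 33.5 and 43.0 there in pups 2, 3, 6 and 8, against 23.6, 20.9, 20.6 and 22.4 in cerebellum. Every pup was higher in striatum/thalamus, by 0.77 on the log2 scale (SE 0.16, adjusted p = 0.00117). That call held in all 10 alternatives run, background subtraction among them (highest adjusted p = 0.0411). Cortex minus striatum/thalamus was -0.60 for Il1r2 (SE 0.16, adjusted p = 0.00922). Of 10 alternatives this call held in 8, background subtraction among them, and was lost without pup 3 (adjusted p = 0.0706) and with DESeq2 (0.0767). The negative probes averaged 22.4 in sham striatum/thalamus, 22.5 in sham cortex and 19.5 in sham cerebellum, so their own regional difference is part of the scale on which these low counts are read.

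Il1b, Il1rn and Il1rap passed no regional test. Il1rap averaged 500 ± 34.8 in sham cortex, 456 ± 36.8 in sham striatum/thalamus and 463 ± 75.9 in sham cerebellum (SD, n = 4 each), and neighbours in that order did not differ beyond their spread. Cortex minus cerebellum was 0.19 on the log2 scale (SE 0.10, adjusted p = 0.133), which passed in 1 of the 10 alternatives run, without pup 6 (adjusted p = 0.00707). Without that pup Il1b also passed, in cortex minus cerebellum (adjusted p = 0.0396) and in striatum/thalamus minus cerebellum (0.0401). Over all 4 pups those differences were 0.32 and 0.30, with adjusted p of 0.187 and 0.221.

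For the members detected in at least 12 libraries, the genes with the most similar pattern were found by Pearson's r of log2 normalized counts over the 24 libraries, after subtracting each region's mean. Il1r1 was most like Nrgn (r = 0.78), a postsynaptic calmodulin-binding protein, Ncf1 (0.75), a subunit of the phagocyte oxidase, and Cx3cl1 (0.75), the neuronal fractalkine ligand, against a median of 0.01 over the panel. Their log2 fold changes in cerebellum were 0.63, 0.53 and 0.70, part of the pattern by which they were chosen. Il1rap was most like Fabp5 (0.69), Kcnj10 (0.68) and Nefl (0.68), with a median of -0.05 over the panel. The points share library, depth and pup, and these values are descriptions.

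The genes around the IL-1 system were read from lists. They were written with earlier results of these data known, so counts of listed genes that pass are no independent support. The panel held 1 other member of the IL-1 family, Il1rl2, the IL-36 receptor, whose log2 fold changes of 0.21, -0.03 and 0.19 in cerebellum, cortex and striatum/thalamus did not pass. Of the 5 other inflammasome and processing genes, 4 were tested in cerebellum and 5 in each forebrain region, and none passed. Casp1, the protease that cleaves the IL-1 beta precursor, averaged 74.6 in HIBI and 57.7 in sham striatum/thalamus with no overlap (log2 fold change 0.37, SE 0.12, adjusted p = 0.155). In that region 9.43% of all genes did not overlap. Casp4, another inflammatory caspase, was 42.5 and 28.4 in HIBI and sham striatum/thalamus (0.59, SE 0.26, adjusted p = 0.274). The list's median log2 fold change was 0.08, -0.08 and 0.17 in cerebellum, cortex and striatum/thalamus, against 0.00, -0.01 and 0.00 over all genes tested.

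Of 16 genes of the receptor pathway none passed in any region, and the medians were -0.04, -0.01 and -0.01 in cerebellum, cortex and striatum/thalamus. Nfkbia, the NF-kappaB inhibitor that is itself an NF-kappaB target, had log2 fold changes of 0.50, 0.34 and 0.38 with adjusted p of 0.224, 0.384 and 0.0556 in the same order. HIBI lay above sham without overlap for Nfkbia in cerebellum and striatum/thalamus, and the arms overlapped in cortex. Another gene of the list lay apart in cerebellum with HIBI lower. Map2k4, a kinase that activates JNK, averaged 4247 in HIBI and 4686 in sham striatum/thalamus with no overlap (-0.14, SE 0.04, adjusted p = 0.111). Myd88, the adaptor, named after its values were seen, averaged 79.6 in HIBI and 105 in sham striatum/thalamus with no overlap (-0.40, SE 0.14, adjusted p = 0.181). Its log2 fold changes in cerebellum and cortex were -0.10 and -0.09. In striatum/thalamus the arms did not overlap for 9.43% of all genes, and in cerebellum for 7.14%.

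Genes known as targets of IL-1 and NF-kappaB gave another picture, though this list too was written with earlier results known. Of 16 tested, 4 rose in cortex, where 2.33% of all genes passed, 4 rose in striatum/thalamus (2.73%) and none passed in cerebellum (0.420%), and the medians were 0.34, 0.40 and 0.37 in cerebellum, cortex and striatum/thalamus. Lcn2, a siderophore-binding acute phase protein, rose in both forebrain regions: 89.4 in HIBI and 29.9 in sham cortex (log2 fold change 1.58, SE 0.27, adjusted p = 0.0154), and 79.6 in HIBI and 25.0 in sham striatum/thalamus (1.67, SE 0.25, adjusted p = 0.00975). Ptgs2, the inducible cyclooxygenase, and Socs3, which damps signaling by cytokine receptors, also rose in both, by 1.60 and 1.09 in cortex (SE 0.29 and 0.17, adjusted p = 0.0206 and 0.0109) and by 1.68 and 1.16 in striatum/thalamus (SE 0.28 and 0.22, adjusted p = 0.0182 and 0.0217). The chemokine Ccl3 rose in cortex (2.02, SE 0.44, adjusted p = 0.0483) and the chemokine Ccl2 in striatum/thalamus (1.42, SE 0.27, adjusted p = 0.0217). In cerebellum Ptgs2 averaged 75.7 in HIBI and 26.2 in sham without overlap (1.54, SE 0.38, adjusted p = 0.148), where 7.14% of all genes did not overlap.

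The target genes answer to many signals besides IL-1, and which signal moved them was not tested. The immediate early genes, which need no new protein to be induced, also moved in the same libraries. Of 8 tested, 8 rose in cortex, 6 rose in striatum/thalamus and none passed in cerebellum, beside the same 2.33%, 2.73% and 0.420% of all genes, with medians of 2.02, 1.84 and 1.45 in cortex, striatum/thalamus and cerebellum. Maff, a small bZIP factor, had the smallest p of the list, with 173 in HIBI and 42.8 in sham striatum/thalamus (2.01, SE 0.15, adjusted p = 0.000226) and 207 in HIBI and 28.2 in sham cortex. The transcription factors Atf3 and Egr1 and the stress gene Gadd45g rose in cortex by 3.85, 1.31 and 2.11 and in striatum/thalamus by 3.39, 2.30 and 1.08 on the log2 scale. Fos averaged 6859 normalized counts in HIBI and 352 in sham cortex. In the same 8 cortical libraries Il1b averaged 26.9 ± 2.14 in HIBI and 27.1 ± 3.75 in sham (SD, n = 4 each), with none above the limit. Ptgs2 is counted in both lists.

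**Figure D4:**
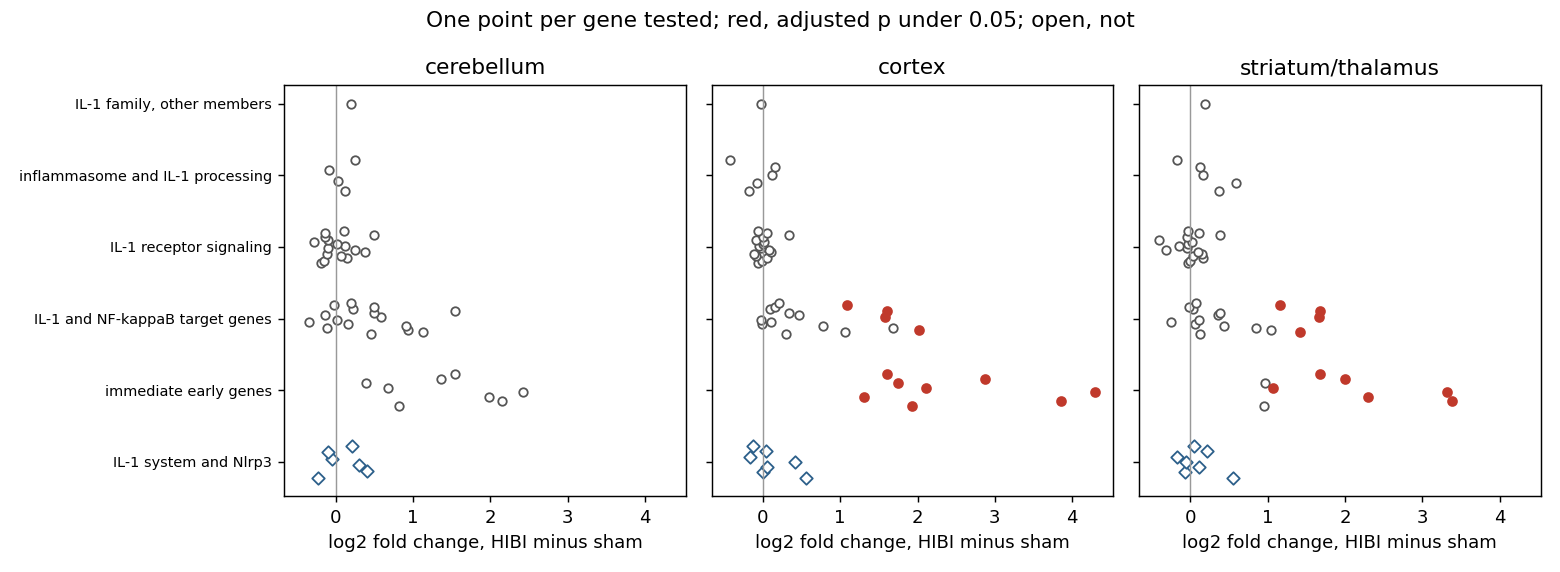
Log2 fold change, HIBI minus sham (x axis, 1 scale for all panels), of every tested gene of the 5 lists and of the IL-1 system with Nlrp3 (y axis), by region, with genes at an adjusted p under 0.05 filled in red. The points of the IL-1 system lie between -0.22 and 0.56 and are all open, while 8 immediate early genes in cortex are filled.

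Many markers of blood leukocytes and border macrophages were at background beside these values. Of 15 on the panel, 9 were below the limit in all 8 cortical libraries, among them Ly6g of neutrophils and Cd3e of T cells, as were 11 in striatum/thalamus and 10 in cerebellum. Cd163, Cd14, Csf3r and Ptprc were above it in some or all libraries of each region. So were Ccr2 in cortex and cerebellum and Nkg7 in cortex. The sums that follow include the background of every probe. Their summed count was 465 to 507 in HIBI cortex against 434 to 474 in sham cortex, 357 to 511 in HIBI striatum/thalamus against 390.4 to 438 in sham, and 399.5 to 427 in HIBI cerebellum against 361 to 419 in sham. None of the leukocyte markers tested passed in a region.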

How the data were processed

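RNA of 24 tissue samples was hybridized to the nCounter Mouse Neuroinflammation probes, each of which carries a fluorescent barcode that is counted without amplification. The deposited counts were raw barcode counts of 784 probes: 757 endogenous genes, 13 reference genes, 6 positive and 8 negative controls. A deposited table of the authors held group means, SDs, ratios and p-values from nSolver, and only its probe classes and RefSeq accessions were used, which the authors deposited as other text columns. Total counts per library were between 855129 and 1134995, and 606 to 655 endogenous genes were above the limit of the negative-probe mean plus 2 SD. Intervals for counts at that level cover the spread between pups only. Replicates were separate pups. Their 36 pairs within groups had r of 0.974 to 0.994 and differed by more than counting noise (lowest chi-square over its degrees of freedom 5.13), so no library was counted as a duplicate.

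The deposited counts were tested with edgeR 4.0.16 in R 4.3.3 (TMM factors, glmQLFit and glmQLFTest, genes kept with 4 or more fitted libraries at 20 counts or above, Benjamini-Hochberg over all genes tested). HIBI was tested against sham within each region, sham regions against each other with the pup as a block, and the difference of HIBI effects between regions with the same block. SEs are Wald SEs of the fit and intervals are 95%. The pairing came from the subject numbers, which mark the animal. Deviations of regions of the same pup correlated between -0.06 and 0.56 (median 0.21), over 0.1 in 18 of 24 pairs. Scripts were tested on simulated data. Alternatives were limma 3.58.1 (voom), DESeq2 1.42.0, reference-gene scaling, other filters, background subtraction, 1 fit of all libraries, and leaving out libraries. Background subtraction set counts below a library's negative-probe mean to 0. Fold changes that rest on such counts do not size a change.

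The members and gene lists were chosen with earlier results of these data known. Named genes are the 7 members, the 3 genes most like each member detected in at least 12 libraries, and of each list, over the 3 regions, those that pass, at most 6 by smallest p, or else the 2 with the smallest p. Myd88, Tbr1 and Eomes were named after their values were seen. Probe efficiencies differ, so levels were not compared between genes.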

Additional observations from a re-analysis of the deposited data

Results flagged for a closer look

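Of 42 sets of 4 libraries (7 members, 3 regions, 2 arms), 2 held 1 library far from the other 3, and chance flags about 1 in 20. Il1r2 in HIBI cerebellum was 19.6 normalized counts in pup 7 against 28.7 to 29.8 in the others, a gap of 0.889 of the range. Il1rap in sham striatum/thalamus was 401 in pup 8 against 470.4 to 476.5 in the others, a gap of 0.919 of the range.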

How the results depend on the processing

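Most member values here rest on counts near those of the negative probes, so depth and background limit Il1a, Il1b, Il1rn, Il1r2 and Nlrp3, while Il1r1 and Il1rap were read well above background. With 4 pups per arm, small changes of Il1r1 and Il1rap may be missed. No member passed between HIBI and sham in any region under any alternative, except in 1 fit of all 24 libraries, where 1 member, Il1r1, passed in cerebellum. That fit ignored which libraries came from the same pup. Of members passing between sham regions, 1 remained for cortex against cerebellum with background subtracted and 1 for cortex against striatum/thalamus with DESeq2, and leaving out 1 pup gave 1 to 2 for that pair of regions.

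The replicate block was the pup. Without it, 3, 3 and 2 members passed for cortex against cerebellum, striatum/thalamus against cerebellum and cortex against striatum/thalamus in sham, as with it, and no member's call changed. Il1r1 in sham striatum/thalamus minus cerebellum was 0.77 without the block, and the HIBI effect on it in cortex less cerebellum was -0.34 without the pairing.

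Signs that turned belonged to values that did not pass. For HIBI minus sham, reference-gene scaling gave 0.014 for Il1rn and 0.072 for Il1rap in cerebellum and 0.089 for Il1b in cortex, where limma-voom gave 0.0046. Background subtraction gave -0.44 for Il1rn and -0.16 for Nlrp3 in striatum/thalamus, and leaving out both Ttr-rich libraries gave 0.0051 for Il1b there. For sham striatum/thalamus minus cerebellum, Il1rn was -0.010 with DESeq2, -0.0073 with limma-voom, -0.034 with no filter and -1.39 with background subtracted, which also gave -1.57 for Il1a and, in cortex minus cerebellum, -0.62 for Il1r2. For sham cortex minus striatum/thalamus, reference-gene scaling gave -0.080 for Il1b and -0.0040 for Il1rap. For the HIBI effect in cortex less striatum/thalamus it gave 0.018 for Il1r1 and 0.081 for Il1rap, and limma-voom gave -0.033 for Il1a. The cause was not tested.

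Leaving out 1 library or pup turned the sign of these values. For HIBI minus sham the ranges were -0.067 to 0.45 for Nlrp3 and -0.11 to 0.068 for Il1rap in cerebellum. In cortex they were -0.063 to 0.093 for Il1b and -0.057 to 0.15 for Il1rn. In striatum/thalamus they were -0.14 to 0.056 for Il1r2, -0.0080 to 0.13 for Nlrp3 and -0.15 to 0.037 for Il1b. In sham, cortex minus cerebellum was -0.092 to 0.0049 for Il1rn, striatum/thalamus minus cerebellum was -0.00068 to 0.18 for Il1rap and -0.15 to 0.19 for Il1rn, and cortex minus striatum/thalamus was -0.28 to 0.15 for Il1rn and -0.048 to 0.12 for Il1b. The HIBI effect in cortex less cerebellum was -0.27 to 0.022 for Il1rap, -0.55 to 0.026 for Nlrp3, -0.044 to 0.79 for Il1a and -0.056 to 0.26 for Il1r2. That in striatum/thalamus less cerebellum was -0.37 to 0.055 for Nlrp3 and -0.075 to 0.29 for Il1b. That in cortex less striatum/thalamus was -0.099 to 0.12 for Il1rap, -0.16 to 0.25 for Il1a, -0.38 to 0.046 for Il1rn and -0.036 to 0.13 for Il1b.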
